A study of Rattus norvegicus with 6 samples.

Results

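Transforming growth factor-beta 3 (Tgfb3), latent transforming growth factor-beta binding protein 2 (Ltbp2), follistatin (Fst) and cellular communication network factor 1 (Ccn1, formerly Cyr61) were examined as secreted factors around the TGF-beta and activin pathways. All probe sets that named exactly 1 gene and carried one of these symbols were taken. This gave 6 probe sets for the 4 genes, with a pair each for Tgfb3 and Fst and 1 each for Ltbp2 and Ccn1, out of 4818 tested probe sets, of which 3956 named 1 gene and together stood for 2890 genes. The genes were chosen by their measured signals in the 4 groups, which were known in advance, so their differences are given below as a description with standard errors and without p values. Where one is said to pass the threshold of the fit over all probe sets, that too describes its size against the spread and is no independent test. No filter on low signals was added here, and all 6 probe sets were tested. Whether or how the deposited probe sets had been selected is not stated. The shares, ranks and counts below therefore cover only the probe sets tested.

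The series held 6 Affymetrix RG_U34A arrays of rat fibroblast lines. The labels call 208F immortal and FE8 transformed by the HRAS oncogene. The groups were untreated 208F (n = 1), 208F treated with 0.3 µM 5-aza-2'-deoxycytidine for 96 h (n = 2), untreated FE8 (n = 1) and FE8 given that dose over those 96 h (n = 2). Decitabine, as the drug is also known, traps DNA methyltransferases after its incorporation into DNA, so that dividing cells lose DNA methylation. Each state is represented by 1 line, so HRAS transformation and other differences between the lines cannot be told apart. Nothing in the labels says that the duplicates came from separate cultures, so their spread may be technical.

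TGF-beta ligands are secreted as latent complexes, are released in the matrix and signal through type I and type II receptor kinases to SMAD transcription factors. Activins use related receptors and the same SMAD branch, and follistatin binds activins outside the cell and blocks them. In fibroblasts TGF-beta is known for raising collagen, fibronectin and smooth muscle actin. Tgfb3 encodes 1 of the TGF-beta ligands. Ltbp2 belongs to the family of proteins that hold latent TGF-beta in the matrix, but it is itself known mainly as a fibrillin- and elastic-fibre-associated glycoprotein. Ccn1 encodes a matricellular protein that binds integrins. It is a serum-induced early gene and a known target of the transcription factors SRF and YAP, and is not a TGF-beta family ligand. The shared property of the 4 products is therefore secretion, not a single place in the pathway.

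Array medians lay between 354 and 422. Pearson's r between duplicates was 0.959 (treated 208F) and 0.969 (treated FE8) over the 4818 probe sets, which are not independent replicates. Both untreated arrays shared a chip lot and a run day. Treated 208F replicate 1 had another lot and day, and the other 3 treated arrays shared yet another, so drug and run cannot be told apart. The ratio of 5' to 3' signal of beta-actin, a sign of RNA quality, was 0.824 in untreated 208F and 0.351 in untreated FE8, the highest and the lowest array. On the treated arrays it lay between 0.384 and 0.529. The same ratio for GAPDH was 0.916 in untreated 208F, 0.691 in untreated FE8 and between 1.01 and 1.13 on the treated arrays. The part of RNA quality in the differences below was not tested. Of 9 measured fibroblast markers, all lay above the array median in each 208F array and 7 or 8 in each FE8 array, with summed signals of 76185 to 96605 and 48705 to 59064. Col1a1, a chain of type I collagen, has 4 probe sets, and on the one with the highest mean log2 signal it read 166 to 474 on the FE8 arrays and 10934 to 13955 on the 208F arrays. On the other 3 the treated 208F arrays lay below the untreated one, for example at 10923 and 6922 against 22282. The summed signal of the 3 measured epithelial genes (Epcam, Krt8 and Krt18) was 145 and 168 on the untreated arrays and 3039 to 4418 on the treated ones. Only 1 of the 3 lay above the array median on each treated array, and none did on the untreated arrays. The sum moved with the drug, with Krt8 higher by 3.79 ± 0.27 in 208F and 4.37 ± 0.27 in FE8 on the log2 scale used below. Its part in the results was not tested. The endothelial marker Kdr stood between 2 and 84 and the leukocyte marker Cd14 between 160 and 446.

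RefSeq promoter windows of rat assembly GRCr8, from 250 bases before to 50 bases after the start site, were matched for 3 of the 4 genes, namely Tgfb3, Ltbp2 and Ccn1. They are shown because the loss of DNA methylation under the drug concerns CpG sites. No window was matched for Fst. Capitals mark the CpG dinucleotides, whose methylation is not analysed here. The windows lie at chr6:111456897-111457196 (Tgfb3, minus strand), chr6:110257249-110257548 (Ltbp2, minus strand) and chr2:237225640-237225939 (Ccn1, minus strand), and each is written 5′ to 3′ on the strand of its gene.
Tgfb3: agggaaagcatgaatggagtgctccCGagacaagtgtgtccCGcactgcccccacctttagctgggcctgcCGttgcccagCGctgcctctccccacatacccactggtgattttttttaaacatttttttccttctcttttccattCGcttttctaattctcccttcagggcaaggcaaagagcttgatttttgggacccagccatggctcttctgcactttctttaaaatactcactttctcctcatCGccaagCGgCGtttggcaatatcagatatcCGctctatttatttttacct
Ltbp2: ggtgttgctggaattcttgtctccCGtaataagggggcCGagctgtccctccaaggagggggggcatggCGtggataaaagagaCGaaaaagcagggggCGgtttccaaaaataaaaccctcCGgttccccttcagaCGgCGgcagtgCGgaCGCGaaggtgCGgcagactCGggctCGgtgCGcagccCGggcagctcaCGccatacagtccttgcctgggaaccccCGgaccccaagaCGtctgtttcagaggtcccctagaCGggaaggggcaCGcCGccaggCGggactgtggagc
Ccn1: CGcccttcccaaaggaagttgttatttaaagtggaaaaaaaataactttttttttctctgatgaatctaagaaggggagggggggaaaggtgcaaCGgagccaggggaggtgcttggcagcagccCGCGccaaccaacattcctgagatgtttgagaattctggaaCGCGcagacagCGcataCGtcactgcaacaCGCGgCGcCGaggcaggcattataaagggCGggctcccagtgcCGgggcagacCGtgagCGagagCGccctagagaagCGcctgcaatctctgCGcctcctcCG

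The Tgfb3 window held 9 CpG sites, the Ltbp2 window 23 and the Ccn1 window 20, against a median of 7 over all 33469 windows. The share of all windows with fewer sites was 55.7% for Tgfb3, 80.5% for Ltbp2 and 75.8% for Ccn1. The core SMAD motif CAGAC, searched on both strands, occurred 3 times in the Ltbp2 window, at -117 to -113, -85 to -81 and -9 to -5 from the start site, and 2 times in the Ccn1 window, at -80 to -76 and -6 to -2. It had no match in the Tgfb3 window, and 50.1% of all windows held at least 1 match. The TEAD motif GGAATG, through which YAP acts, matched once, in the Ccn1 window at -113 to -108, and was held by 14.2% of all windows. The AP-1 motif TGANTCA (7.33% of windows) and the CArG box of SRF (1.64%) had no match in these 3 windows. No SMAD match overlapped the TEAD match. A match is a run of letters and does not show a bound site.

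Tgfb3 was high in 208F and low in FE8 whatever the treatment. By U03491_at the 208F arrays read 5281 without the drug and 3071 and 2094 with it, and the FE8 arrays read 261 without and 283 and 186 with it. By U03491_g_at, which has the same source sequence by its name, the 208F arrays read 6289 without and 4984 and 2742 with the drug, and the FE8 arrays 443 without and 381 and 372 with it. On both probe sets all 3 208F arrays lay above all 3 FE8 arrays. In these bulk samples fewer cells of a type and less RNA per cell cannot be told apart. The mean signal was 20.2 times higher in untreated 208F than in untreated FE8 by U03491_at and 14.2 times by U03491_g_at. On the log2(signal + 64) scale, used for all differences below, untreated FE8 differed from untreated 208F by -4.04 ± 0.39 and -3.65 ± 0.40 (± is the standard error of the limma fit over all probe sets). The constant of 64 is the 10th percentile of all tested signals. A value is said to be called, or past the threshold, where its Benjamini-Hochberg adjusted p over all 4818 probe sets was under 0.05, and both of these differences were called.

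With the drug the difference of FE8 from 208F in Tgfb3 was -3.14 ± 0.27 and -3.09 ± 0.28. The treated 208F arrays were the 2 lowest of the 208F arrays, and the drug effect in 208F was -1.04 ± 0.33 and -0.76 ± 0.34, neither past the threshold. The second value was -1.18 without treated 208F replicate 1 and -0.33 without replicate 2. Both Tgfb3 probe sets passed the threshold in 208F once replicate 1 was left out. In FE8 the drug effect was -0.14 ± 0.33 and -0.20 ± 0.34, within 2 standard errors of 0. The order of the groups was thus treated FE8, untreated FE8, treated 208F and untreated 208F, with the first 2 not apart beyond 2 standard errors.

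Ltbp2 was low in FE8, and least so with the drug. Its probe set Y12760cds_at read 561 without and 816 and 582 with the drug on the 208F arrays, and 16 without and 172 and 248 with it on the FE8 arrays. The lowest 208F array, at 561, stood above the highest FE8 array, at 248. Untreated FE8 differed from untreated 208F by -2.97 ± 0.44 and treated FE8 from treated 208F by -1.47 ± 0.31. The drug effect was 1.76 ± 0.38 in FE8 and 0.27 ± 0.38 in 208F, and the difference between these effects was 1.49 ± 0.54, not past the threshold.

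The signal of 16 in untreated FE8 lies below the pseudocount of 64, which holds down the size of both differences that use it. With a pseudocount of 16 the untreated line difference of Ltbp2 was -4.17 ± 0.52, its FE8 drug effect was 2.80 ± 0.45 and the difference of effects was 2.51 ± 0.63. The FE8 drug effect kept its sign but lost its call without treated FE8 replicate 1, without treated FE8 replicate 2 and after quantile normalization, where it was 1.42 ± 0.41. The treated line difference lost its call without either treated FE8 array. Treated FE8 remained below untreated 208F, by -1.20 ± 0.38.

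Fst was higher with the drug in both lines, and lower in FE8 than in 208F at each treatment state. By rc_AA858520_at the 208F arrays read 225 without and 1783 and 1912 with the drug, and the FE8 arrays 36 without and 628 and 392 with it. By rc_AA858520_g_at the 208F arrays read 257 without and 1825 and 2422 with it, and the FE8 arrays 71 without and 658 and 508 with it. Within each line both treated arrays stood above the untreated one, and treated FE8 stood above untreated 208F. The mean signal in 208F was 8.21 times higher with the drug by the first probe set and 8.26 times by the second. In FE8 it was 8.21 times higher by the second, and no ratio is given for the first, whose untreated signal of 36 lies below the pseudocount.

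The drug effect on Fst was 2.72 ± 0.35 and 2.76 ± 0.33 in 208F and 2.49 ± 0.35 and 2.25 ± 0.33 in FE8, and all 4 of these values passed the threshold. The calls in FE8 were lost without treated FE8 replicate 1, where the effect by the first probe set was 2.19 ± 0.38. The difference between the drug effects was -0.23 ± 0.49 and -0.50 ± 0.46, within 2 standard errors of 0, and the sign of the first turned to 0.35 ± 0.55 with a pseudocount of 16, to 0.09 with 32 and to 0.07 ± 0.49 without treated FE8 replicate 2. FE8 lay below 208F by -1.53 ± 0.40 and -1.25 ± 0.38 without the drug and by -1.77 ± 0.28 and -1.75 ± 0.27 with it. The untreated difference was called for rc_AA858520_at and not for rc_AA858520_g_at, and the former call was lost without either treated FE8 array. Both treated line calls were lost without treated FE8 replicate 2. Treated FE8 exceeded untreated 208F by 0.96 ± 0.35 and 1.00 ± 0.33, so the order was untreated FE8, untreated 208F, treated FE8 and treated 208F, with each neighbour apart by more than 2 standard errors.

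Ccn1 was high in 208F and low in FE8 at each treatment state. Its probe set rc_AA800784_at read 1834 without and 2607 and 3237 with the drug on the 208F arrays, and 183 without and 252 and 212 with it on the FE8 arrays. The 208F arrays were all above the FE8 arrays, and in both lines the treated arrays were the higher ones. FE8 differed from 208F by -2.94 ± 0.35 untreated and -3.33 ± 0.24 treated, the latter a ratio of mean signal of 12.6. The drug effect was 0.65 ± 0.30 in 208F and 0.26 ± 0.30 in FE8, neither past the threshold, and after quantile normalization the latter was 0.00 ± 0.31. Their difference was -0.39 ± 0.42. The order was untreated FE8, treated FE8, untreated 208F and treated 208F, where the FE8 groups were within 2 standard errors of each other and the 208F groups were not.

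**Figure D1:**
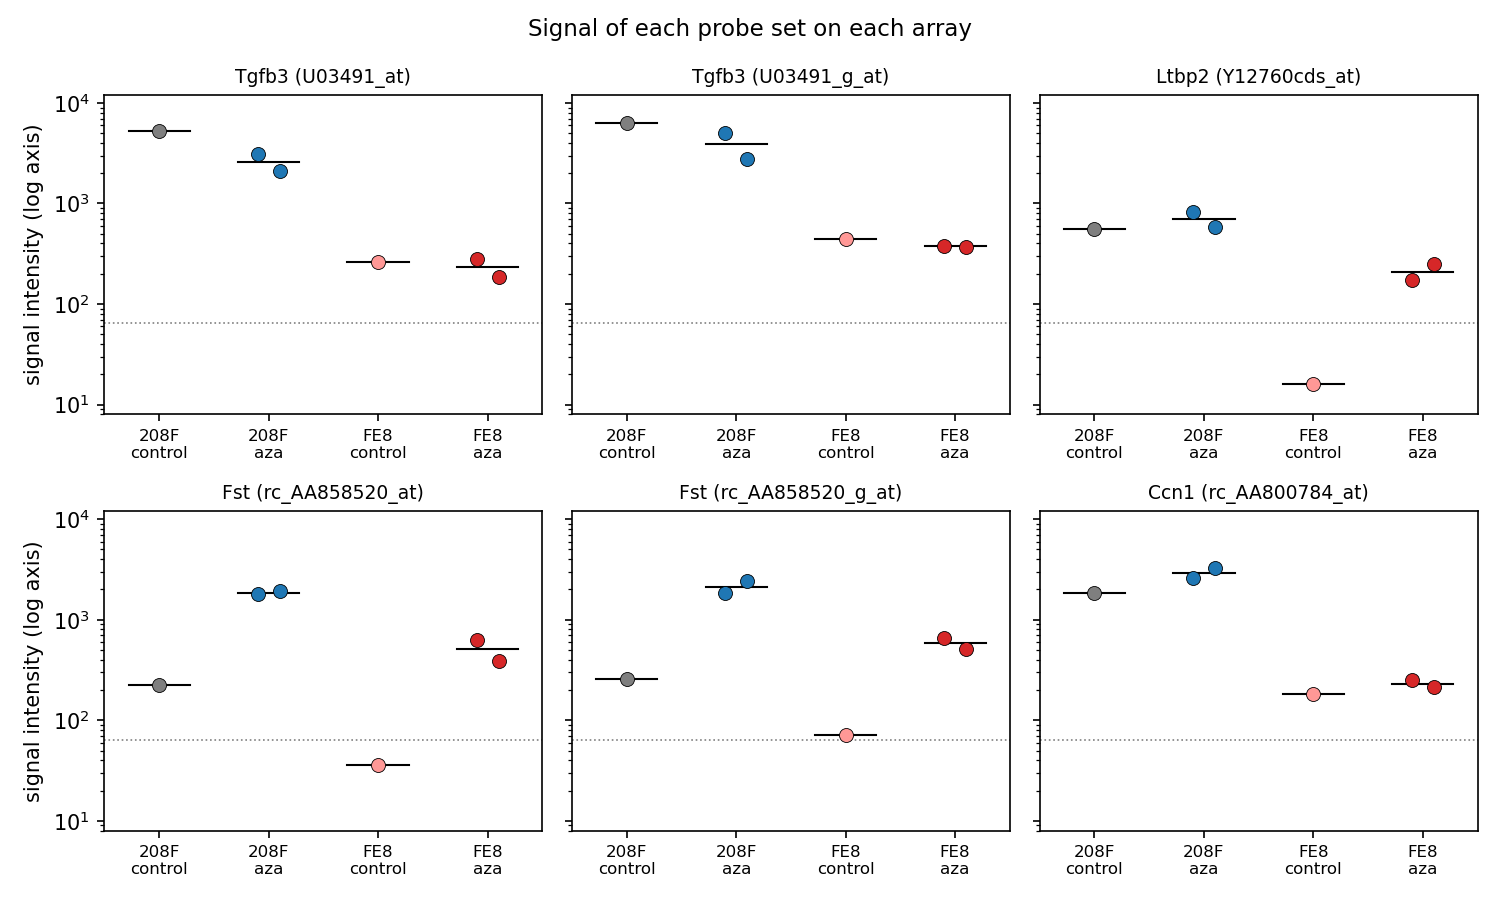
Signal intensity on a log axis for each of the 6 probe sets on each array; points are arrays (1 untreated and 2 treated per line), short lines are group means and the dotted line is the pseudocount of 64. Tgfb3, Ltbp2 and Ccn1 show every 208F point above every FE8 point, while Fst is highest in treated 208F and second in treated FE8.

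Counted over the 6 probe sets, 5 passed the threshold as lower in untreated FE8 than in untreated 208F and none as higher, beside 2.82% of all probe sets called lower and 3.09% called higher. With the drug all 6 were called lower in FE8, beside 3.65% of all probe sets called lower and 3.42% called higher. The probe set missing from the untreated count was rc_AA858520_g_at of Fst. Because the genes were chosen with these line differences known, nothing is read from these shares. On 4 of the 6 probe sets, those of Tgfb3, Ltbp2 and Ccn1, all 3 208F arrays lay above all 3 FE8 arrays, beside 9.53% of all probe sets. Among treated arrays alone the 208F pair lay above the FE8 pair on all 6, beside 21.5%. Within the chip lot of 3 treated arrays, which leaves out treated 208F replicate 1, the treated line differences were -2.87 and -2.67 for Tgfb3, -1.25 for Ltbp2, -1.81 and -1.95 for Fst and -3.48 for Ccn1. These values set 1 treated 208F array against 2 FE8 arrays. Without treated FE8 replicate 2, 3 of the 6 were called, those of Tgfb3 and Ccn1. All 6 differences were negative under each of the 11 alternative settings, in both line comparisons. The median over the 6 probe sets was -2.95 untreated and -2.43 treated, beside 0.02 and 0.00 over all probe sets.

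For the drug, 2 of 6 probe sets were called higher in 208F, both of Fst, beside 3.59% of all probe sets, and none lower, beside 1.6% (5.19% in either direction). Both treated arrays lay above the untreated one in 208F on 4 of 6 probe sets, beside 44.1% of all. In FE8, 3 of 6 were called higher, both of Fst and that of Ltbp2, beside 5.06% of all, and none lower, beside 3.09% (8.16% in either direction). Both treated arrays lay above the untreated one in FE8 on 4 of 6 probe sets, beside 42.9% of all. None of the 6 passed the limma test of the difference between the drug effects, which called 3 of 4818 probe sets (0.0623%, with 0.0208% higher and 0.0415% lower).

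In rank, the untreated line difference of Tgfb3 was number 15 from the lowest of 4818 by U03491_at and number 20 by U03491_g_at. Ltbp2 was number 33 and Ccn1 number 35, while Fst was number 137 and 198. With the drug Ccn1 was number 16, Tgfb3 number 20 and 21, Fst number 82 and 84 and Ltbp2 number 110. For the drug effect counted from the highest, Fst stood at 36 and 35 in 208F and at 55 and 73 in FE8, and Ltbp2 at 129 in FE8 against 1790 in 208F.

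**Figure D2:**
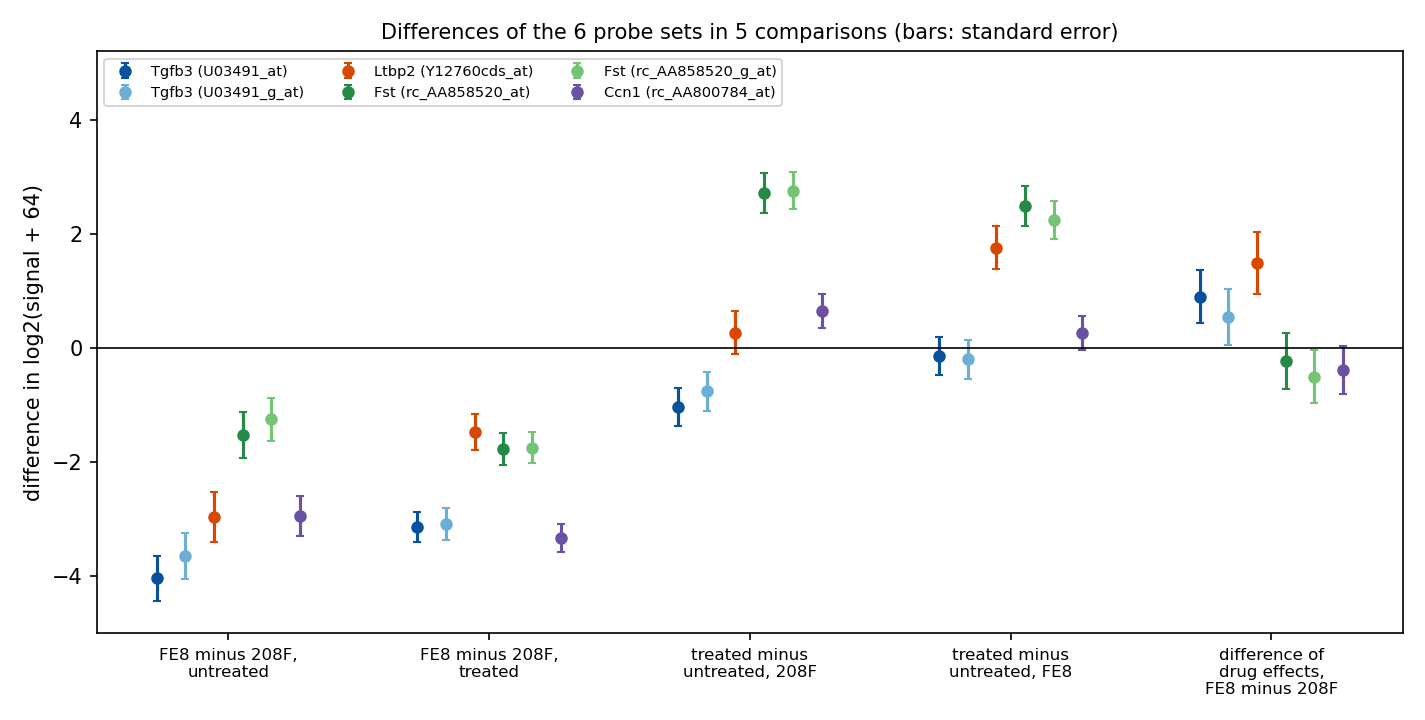
Difference in log2(signal + 64) for each of the 6 probe sets in the 5 comparisons, with bars of 1 standard error from the fit. All values of both line comparisons lie below 0, from -4.04 to -1.25, and among the drug effects the Fst points lie between 2.25 and 2.76 in both lines while Ltbp2 lies at 1.76 in FE8 and 0.27 in 208F.

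**Figure D3:**
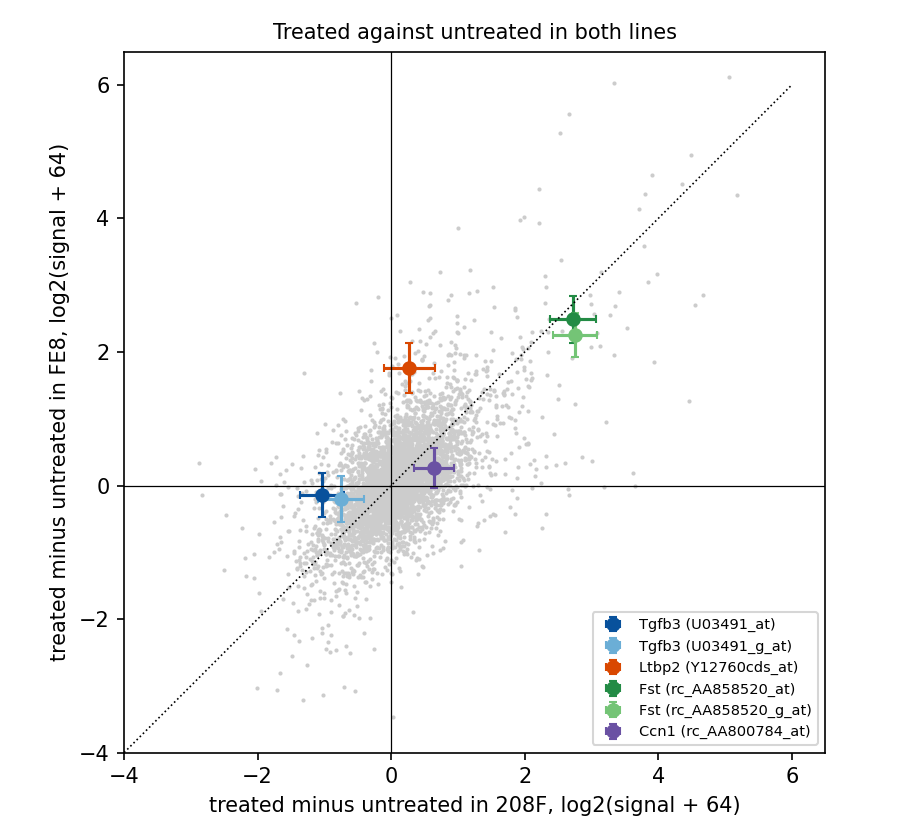
Treated minus untreated difference in log2(signal + 64) in 208F (horizontal) and FE8 (vertical) for all 4818 probe sets (grey) and for the 6 probe sets with bars of 1 standard error; the dotted line marks equal effects. Fst lies near the line of equal effects, Ltbp2 above it, and Tgfb3 and Ccn1 near 0 in FE8.

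The 4 profiles over the 6 arrays were compared as a description, using the brighter probe set of Tgfb3 and Fst and centring each log2 profile on its mean. Tgfb3 and Ccn1 were most alike, with a root mean square difference of 0.60 and Pearson's r = 0.94, and Tgfb3 and Fst least alike, with 1.70 and r = 0.41. The 2 probe sets of Tgfb3 differed by 0.20 and those of Fst by 0.15. These values rest on 6 arrays that share lines and run days.

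Among 2886 other named genes, the smallest difference from Tgfb3 was that of Fstl1, a follistatin-related secreted glycoprotein (0.54, r = 0.955). Next came the carbonic anhydrase Car3 (0.55, r = 0.995) and tropomyosin 1 (Tpm1, 0.56, r = 0.983). The Tpm1 value rests on its brightest probe set. On M34134_s_at of Tpm1 the lines overlapped, with 1968, 1530 and 1227 on the 208F arrays and 1588, 1632 and 1425 on the FE8 arrays. On each remaining Tpm1 probe set all FE8 arrays lay below all 208F arrays. The nearest to Ltbp2 were the gelatinase Mmp2 (0.29, r = 0.993), the atypical cadherin Fat1 (0.40, r = 0.997) and the epoxide hydrolase Ephx1 (0.41, r = 0.947). Mmp2 read 927 without and 1319 and 1234 with the drug on the 208F arrays, and 21 without and 298 and 334 with it on the FE8 arrays, so it too was lowest in untreated FE8. The nearest to Fst were the myogenic factor Myod1 (0.48, r = 0.945), Ptgr1 (0.51, r = 0.941) and Mmp23 (0.51, r = 0.944), and the nearest to Ccn1 were Ddah1 (0.38, r = 0.975), fibronectin (Fn1, 0.50, r = 0.968) and the proprotein convertase Pcsk6 (0.55, r = 0.977).

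The lists of pathway genes and targets below were written with some results of these data known. Their shares count 1 probe set per gene, the brightest, while the shares of all probe sets also count dim ones. Both are given as a description, and nothing is read from the gap between them. For the rest of the pathway, 43 of 116 listed genes were measured, by the probe set of each with the highest mean log2 signal. In untreated FE8 9 were lower than in 208F and 1 was higher, 23.3% called beside 5.92% of all probe sets, and with the drug 9 were lower and none higher, 20.9% beside 7.08%. Of 4 other ligands, Inhbe, an activin subunit, was higher in untreated FE8 by 2.21 ± 0.43 (limma adjusted p = 0.010) and differed by 0.12 ± 0.30 in treated cells, which did not pass. Gdf15, a stress-induced ligand, was higher with the drug by 2.35 ± 0.39 in 208F and 2.29 ± 0.39 in FE8, and Inhbe by 1.77 ± 0.37 in 208F. Of 5 other extracellular inhibitors, Fstl1 was lower in FE8 by -2.41 ± 0.37 untreated and -2.54 ± 0.26 treated. The drug effect on Fstl1 in FE8 was -1.24 ± 0.32, which passed, and in 208F -1.12 ± 0.32, which did not. Biglycan (Bgn) was lower with the drug by -1.53 ± 0.29 in 208F and -1.51 ± 0.29 in FE8 on its brightest probe set. On its other probe set the treated 208F arrays also lay below the untreated one, at 448 and 459 against 958. The treated FE8 arrays lay above the untreated one there, at 280 and 264 against 167.

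No limma test passed in the 5 comparisons for 6 measured receptors, 5 SMADs and their regulators, or 4 other latency and activation genes. Among them 1 unadjusted p was under 0.05, for the integrin chain Itgav in the untreated line comparison. The receptors were Tgfbr3, Acvr1b, Acvr2a, Acvr2b, Acvrl1 and Bmpr1a. Tgfbr1 and Tgfbr2 were not among the measured genes, so nothing is said of them. Signals near the pseudocount limit the sizes for Acvrl1 (20 to 84), Acvr2a (55 to 160), Smad1 (39 to 158) and Smad3 (55 to 126). Of 19 target genes 8 were lower in FE8 and none higher in each line comparison, 42.1% beside the shares of all probe sets given above, among them Tagln at -6.18 ± 0.38 and Col1a1 at -5.58 ± 0.35 untreated and at -4.38 ± 0.27 and -4.94 ± 0.25 treated. With the drug 5 targets were higher and 4 lower in 208F and 7 higher and 2 lower in FE8, 47.4% called in each line beside 5.19% and 8.16% of all probe sets. The higher FE8 targets include Sparc, whose brightest probe set read 6913 without and 14909 and 20565 with the drug in FE8. On its other probe sets the treated FE8 arrays lay below the untreated one, for example at 409 and 400 against 1103. Among the higher targets the largest effect in both lines was that of Cdkn1a, at 3.42 ± 0.32 in 208F and 2.90 ± 0.32 in FE8. The Id1, Id2 and Id3 inhibitors of differentiation were also higher in both lines, with Id1 at 1.86 ± 0.29 and 2.63 ± 0.29 on its brightest probe set. Its other probe set rose less. It read 326 without and 429 and 408 with the drug in 208F, and 218 without and 413 and 284 with it in FE8. The lower targets in 208F were Col3a1 (-2.17 ± 0.41), Acta2 (-2.03 ± 0.30), Tagln (-1.58 ± 0.33) and Tpm2 (-1.35 ± 0.33). Those in FE8 were Col1a2 (-1.93 ± 0.31) and Lox (-1.56 ± 0.27). No other CCN family gene was among the measured ones. Of 10 other SRF and YAP targets 6 were lower in untreated FE8 than in untreated 208F and none higher, 60% beside 5.92% of all probe sets. Between the treated lines 6 were lower and 1 was higher in FE8, 70% beside 7.08%. Among the lower ones was Ankrd1, at -1.84 ± 0.45 untreated and -2.42 ± 0.31 treated, and the higher one was Egr1 at 1.61 ± 0.24. For the drug, 3 of the 10 were lower and none higher in 208F (30% beside 5.19%), while 2 were higher and none lower in FE8 (20% beside 8.16%), Egr1 by 2.86 ± 0.29 and Cald1 by 1.90 ± 0.34. The SRF and target lists share Tagln, Acta2 and Tpm1.

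**Figure D4:**
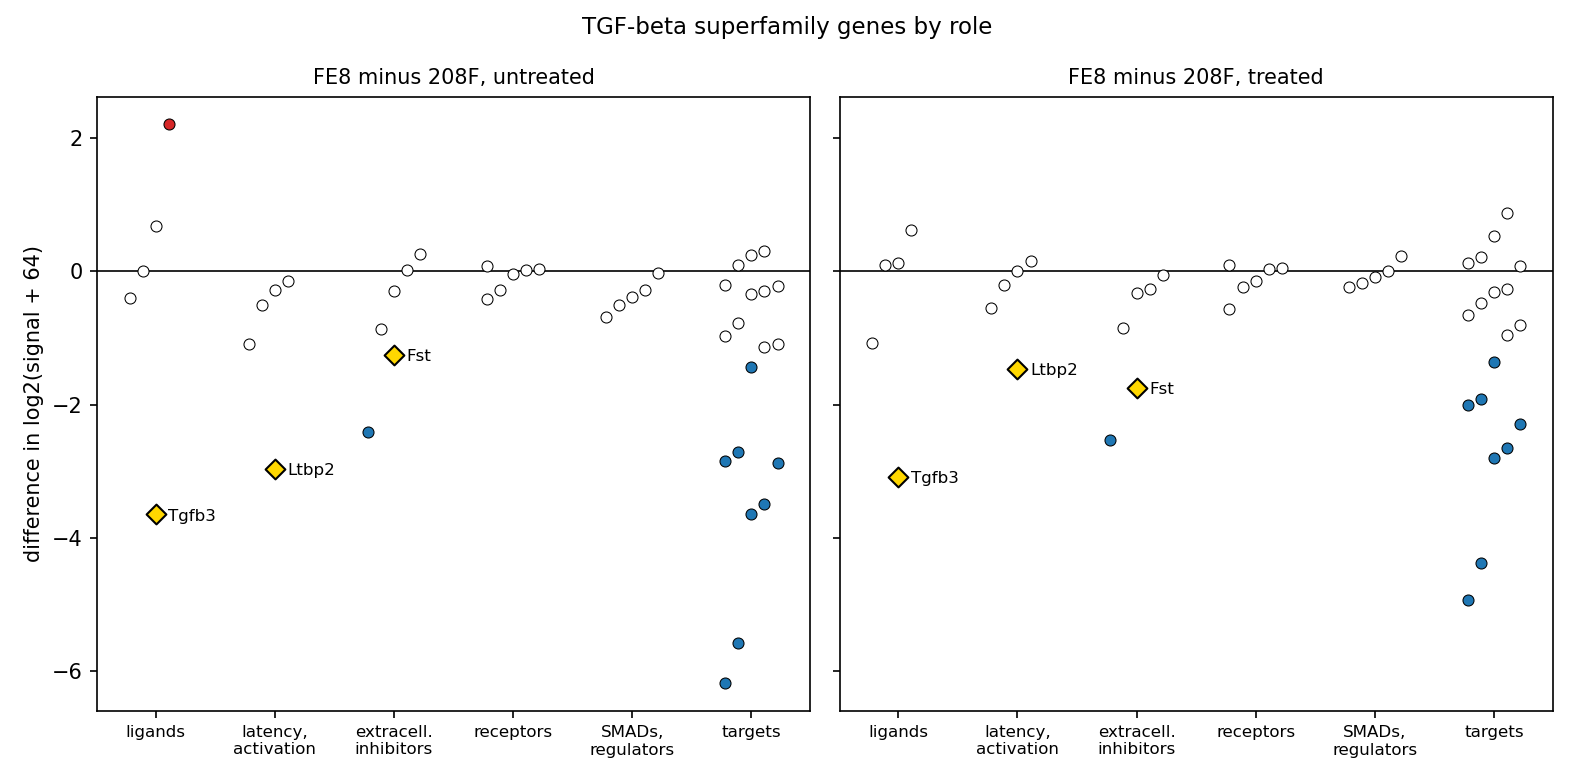
Difference of FE8 from 208F in log2(signal + 64) without (left) and with the drug (right) for genes of each role, 1 point per gene by its brightest probe set; blue is called lower, red called higher and white not called, and yellow diamonds are Tgfb3, Ltbp2 and Fst. No measured receptor or SMAD gene is called, and the lowest point is the target Tagln at -6.18 untreated.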

How the data were processed

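Total RNA of 6 samples of cultured cells was hybridised to Affymetrix RG_U34A arrays, per the file headers. The authors deposited 1 linear signal intensity for each probe set and array, in whole numbers. MAS5 is named in the submitters' processing notes, with no version or settings given there. Array means lay between 1258 and 1390 and no further scaling was done. The table used here held 4847 rows, and how these were chosen is not stated in the sources used. Listed genes without a row were not analysed. The 29 control probe sets were left out. Symbols came from GEO's platform table, updated by gene identifier through a GRCr8 gene table used for names only (3942 of 3956 probe sets matched).

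Signals were transformed as log2(signal + 64). A model of 4 group means was fitted over 4818 probe sets with limma 3.58.1 in R 4.3.3 (lmFit, eBayes with intensity trend, 2 residual degrees of freedom). With 1 array per untreated group, the spread came from the treated duplicates alone and was assumed to hold for untreated cells too. Tests were 2-sided, Benjamini-Hochberg adjusted within a comparison, with a threshold of 0.05. The number of arrays limits precision. The scripts were tested on simulated data.

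The genes and lists were chosen with earlier results of these data known. The rule for named genes took all probe sets of the 4 genes, up to 6 called genes per list and direction, and the 3 nearest profiles per gene. Alternatives were pseudocounts of 16 and 32, a filter at a signal of 200, quantile and median scaling, no trend, leaving out each treated array, a replicate block and another choice of probe set.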

Additional observations from a re-analysis of the deposited data

How the results depend on the processing

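Counts are of probe sets past the threshold out of 4818, then of pathway genes out of 43. Leaving out 1 treated array at a time gave 109 to 541 against 285 in the untreated line comparison (6 to 15 against 10 pathway genes), 96 to 530 against 341 in the treated one (7 to 14 against 9), 75 to 663 against 250 for the drug in 208F (5 to 17 against 12), 76 to 783 against 393 in FE8 (2 to 15 against 12), and 0 to 206 against 3 for the difference of drug effects (0 to 5 against 0). The lower counts came without either FE8 array, whose fits take their spread from the 208F duplicates alone, and the higher ones without either 208F array. Quantile normalization gave 165 in 208F, 258 in FE8 and 0 for the difference of effects, which was also 0 without the trend, 10 with pseudocounts of 16 and 32, 9 after median centring and 0 with the replicate block. Quantile and median scaling moved the median drug effect over all probe sets from 0.11 to -0.03 in 208F and from 0.08 to -0.04 in FE8. The labels do not say whether treated arrays with the same number share more than that number. The replicate 1 minus 2 differences of the lines correlated with r = 0.32 over probe sets, and the source of this correlation was not tested. With the replicate block the other counts were 285, 325, 216 and 429. The untreated call of Fst (rc_AA858520_at) was lost with this block, as it was after quantile normalization, without the trend and without either FE8 array. On the strand of the gene alone, the TEAD motif had no match and the SMAD motif had 2 matches in the Ltbp2 window and 2 in the Ccn1 window. Signals near 64 limit the sizes for Ltbp2 and Fst in untreated FE8. Signals below 64 also limit those for Inhbe in untreated 208F, Gdf15 on both untreated arrays, Tagln in FE8 and Cald1 in untreated FE8.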
